A study of Mus musculus with 2 samples.

Results

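Interferons and their receptors are described here by 8 of the 31053 genes counted in the series: Ifng, Ifnb1, Ifna2, Ifna4, Ifnar1, Ifnar2, Ifngr1 and Ifngr2. They were matched by symbol, and all 8 had counts. The cells were 10107 of the WT library and 7604 of the CD169-DTR library, each with at least 1000 unique molecular identifiers (UMIs, counts of captured transcripts) and at most 17% mitochondrial UMIs.

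GL261, a mouse glioma line, was injected into the brain (100000 cells) of male C57BL/6 mice of 8 to 12 weeks. At 10 days post-inoculation, live CD45.2+ cells were sorted from the injected hemisphere and counted with droplet 3' RNA sequencing. The WT group carried no transgene, and the CD169-DTR group was heterozygous for a diphtheria toxin receptor expressed from the Siglec1 gene, which encodes the macrophage lectin CD169. Both groups received diphtheria toxin (DT, 40 ng/g) on days -1 and 4, so the toxin itself was shared and the transgene was the difference. Each group was 1 library made from 3 pooled mice. No test between the groups was therefore possible, and no p-value is given. Intervals are exact at 95% and cover counting error only, not the spread between mice.

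Interferons are secreted proteins that raise antiviral and inflammatory defences in the cells that bind them. Ifng encodes IFN-γ, the type II interferon, made mainly by NK cells and T cells. Ifnb1, Ifna2 and Ifna4 encode type I interferons, which many cells make after their sensors detect nucleic acids or microbial products, and which plasmacytoid dendritic cells (pDCs) are known to release in large amounts. Type I interferons bind a receptor of the subunits IFNAR1 and IFNAR2, and IFN-γ binds IFNGR1 together with IFNGR2. The kinases JAK1, TYK2 and JAK2 on these receptors activate STAT proteins, of which STAT2 joins IRF9 to turn on antiviral genes. In glioma, IFN-γ from lymphocytes acts on macrophages and microglia.

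The 8 genes lie on 3 chromosomes of the mouse build GRCm38. Ifng lies at chr10:118441046-118445892 on the plus strand and Ifngr1 at chr10:19591949-19610229. The type I genes are single-exon genes in a cluster on chromosome 4, with Ifnb1 at chr4:88522025-88522774, Ifna2 at chr4:88682881-88683912 and Ifna4 at chr4:88841861-88842421. The annotation placed 18 Ifna, Ifnb1, Ifne and Ifnz genes within 358 kb there. The other 3 receptor genes lie on chromosome 16 within 193 kb, as Ifnar2 at chr16:91372783-91405589, Ifnar1 at chr16:91485238-91507441 and Ifngr2 at chr16:91547072-91565623. Ifng and Ifnar2 each overlap 1 other annotated gene on the same strand, so reads there cannot be told apart by strand.

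The promoters of the 4 interferon genes are shown because the transcripts counted below came from Ifng and Ifnb1 in large part, from Ifna2 in small part and from Ifna4 almost not at all. A receptor promoter, that of Ifngr1, is shown beside them. Each runs 5' to 3' from 250 bases before to 50 bases after the RefSeq start (GRCm38.p6). Capitals mark matches on either strand to any of 4 short motifs. AANNGAAA is a short form of the element bound by interferon regulatory factors (IRFs). The site searched for NF-κB, which drives inflammatory genes, begins with GGGA, goes on with any pair of bases, and closes on TTCC. The core promoter motifs were TATAAA, which is known as the TATA box, and GGGCGG, which is known as the GC box. The windows are chr10:118440796-118441095 (plus), chr4:88522745-88523044 (minus), chr4:88683730-88684029 (minus), chr4:88841566-88841865 (plus) and chr10:19591699-19591998 (plus), in the order printed.
Ifng: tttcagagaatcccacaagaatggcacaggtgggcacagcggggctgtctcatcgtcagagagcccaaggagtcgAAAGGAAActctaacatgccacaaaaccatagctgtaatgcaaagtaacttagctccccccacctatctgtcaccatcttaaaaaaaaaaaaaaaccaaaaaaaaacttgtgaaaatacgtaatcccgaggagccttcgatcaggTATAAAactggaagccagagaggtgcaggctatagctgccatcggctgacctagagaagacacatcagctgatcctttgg
Ifnb1: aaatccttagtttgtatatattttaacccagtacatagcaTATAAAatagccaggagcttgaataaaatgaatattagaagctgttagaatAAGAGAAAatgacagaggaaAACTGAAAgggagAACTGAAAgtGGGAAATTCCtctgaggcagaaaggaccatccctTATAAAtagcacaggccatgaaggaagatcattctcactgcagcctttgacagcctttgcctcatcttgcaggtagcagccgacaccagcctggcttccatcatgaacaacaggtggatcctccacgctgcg
Ifna2: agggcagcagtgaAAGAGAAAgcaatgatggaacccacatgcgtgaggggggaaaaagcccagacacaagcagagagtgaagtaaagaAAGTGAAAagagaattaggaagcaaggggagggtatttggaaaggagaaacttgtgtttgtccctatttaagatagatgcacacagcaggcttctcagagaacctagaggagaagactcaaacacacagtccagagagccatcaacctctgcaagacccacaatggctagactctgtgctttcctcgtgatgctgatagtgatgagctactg
Ifna4: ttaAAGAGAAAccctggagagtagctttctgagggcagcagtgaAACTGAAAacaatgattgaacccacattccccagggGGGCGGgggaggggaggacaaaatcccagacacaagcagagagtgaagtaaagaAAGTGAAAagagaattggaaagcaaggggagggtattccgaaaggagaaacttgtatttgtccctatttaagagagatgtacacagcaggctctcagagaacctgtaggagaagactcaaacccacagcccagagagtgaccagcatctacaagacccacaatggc
Ifngr1: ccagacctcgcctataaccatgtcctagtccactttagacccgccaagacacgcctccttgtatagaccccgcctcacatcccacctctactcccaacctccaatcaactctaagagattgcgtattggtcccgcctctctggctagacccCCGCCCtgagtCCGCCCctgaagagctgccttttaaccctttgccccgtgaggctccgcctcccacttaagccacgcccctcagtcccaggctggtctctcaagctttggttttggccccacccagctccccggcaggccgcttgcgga

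Among 32851 promoters of this length, 23.9% held the IRF element, 1.47% the NF-κB site, 13.6% the TATA box and 35.7% the GC box. Ifnb1 held 3 IRF elements followed at 116 bases before the start by the NF-κB site, with no overlap between them. It also held TATA letters 210 and 82 bases before the start. Ifng held 1 IRF element and a TATA box 30 bases before the start. Ifna2 held 2 IRF elements and Ifna4 held 3, and neither held the TATA letters. The Ifna2 and Ifna4 windows had 231 of 270 aligned bases in common (85.6%), although their annotated starts are offset. Among the receptors, Ifngr2 held the NF-κB site 75 bases before the start. The 4 receptor promoters held no IRF element and from 1 to 4 GC boxes each. Their GC content was 57% to 74.3%, against 42.7% to 48% for the interferon promoters and a median of 52.7% over all promoters. A match is a run of letters only, and binding was not measured.

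The WT library held 101808996 UMIs and the CD169-DTR library 84065489, with medians of 7776 and 8099.5 UMIs per cell. Clusters were named from marker genes and are microglia-like, macrophage-like and so on, and the short names are used from here. Siglec1, whose product CD169 marks the depleted cells, stood at 17.8 CPM (UMIs of the gene per 1000000 UMIs) over all WT cells and at 5.46 CPM over all CD169-DTR cells, and at 38.1 and 11.9 CPM in macrophages. In microglia it stood at 18.9 and 5.65 CPM, with 13.2% and 4.65% of cells positive. Because the toxin receptor is expressed from Siglec1, loss of cells and a change of the gene itself cannot be told apart here. The libraries shared 21 cell barcodes. The 9 microglial markers summed to 1774 CPM in WT NK and T cells and to 1361 CPM in those of CD169-DTR. Without 2 subclusters of deep cells led by microglial and macrophage genes, called mixed below, these sums were 316 and 270 CPM. The 10 macrophage markers summed to 1970 CPM in WT NK and T cells and 1244 CPM in those of CD169-DTR, and to 1845 and 1271 CPM without the mixed subclusters, so this sum stayed higher in WT.

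Ifng came almost wholly from NK cells and T cells in both libraries. The WT cells held 1520 Ifng UMIs in 354 cells, and 93.6% (95% interval 92.2 to 94.7) of these UMIs were in NK and T cells. The CD169-DTR cells held 882 Ifng UMIs in 107 cells, of which 96.5% (95 to 97.6) were in NK and T cells. In WT the UMIs were divided nearly evenly, with 731 in 328 NK cells and 691 in 474 T cells. In CD169-DTR, 300 were in 87 NK cells and 551 in 217 T cells, of which 409 lay in the single T cell described next. Without it the T cells held 142 UMIs, fewer than the NK cells.

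As a level, Ifng stood at 346 CPM (321 to 372) in WT NK cells and at 453 CPM (403 to 508) in CD169-DTR NK cells. In T cells it stood at 169 CPM (156 to 182) and 348 CPM (319 to 378). These higher levels in CD169-DTR rested on few cells. A single T cell of CD169-DTR held 409 Ifng UMIs, which was 46.4% of all Ifng UMIs in that library. Ifng made up 5.00% of that cell's own 8178 UMIs.

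For Ifng, WT over CD169-DTR gave a log2 ratio that was -1.04 in T cells and became 0.75 (0.49 to 1.03) when the cell with most Ifng was left out of each library. In NK cells it was -0.39 with all cells, -0.25 without the top cell of each library and 0.43 (0.14 to 0.72) without the top 5. Over NK and T cells together it was -0.73 and became 0.14 (-0.01 to 0.30) without the top cell. The same number of cells is a larger part of the smaller CD169-DTR classes (5 of 87 against 5 of 328 NK cells), so the 2% of cells with most Ifng were also left out of each class. The log2 ratio then was 0.78 (0.44 to 1.13) in T cells and 0.43 (0.23 to 0.64) over both, but -0.32 (-0.56 to -0.0833) in NK cells. The direction in T cells thus turned on its highest cells, and that in NK cells did not turn when equal shares of cells were left out. Over all cells of a library, which also differ in how many lymphocytes they hold, the ratio lay towards WT at 0.52, and at 1.34 and 1.73 without the top cell and the top 5. In these cells as a whole, 50% of the UMIs were in 34 WT cells and in 2 CD169-DTR cells.

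**Figure D1:**
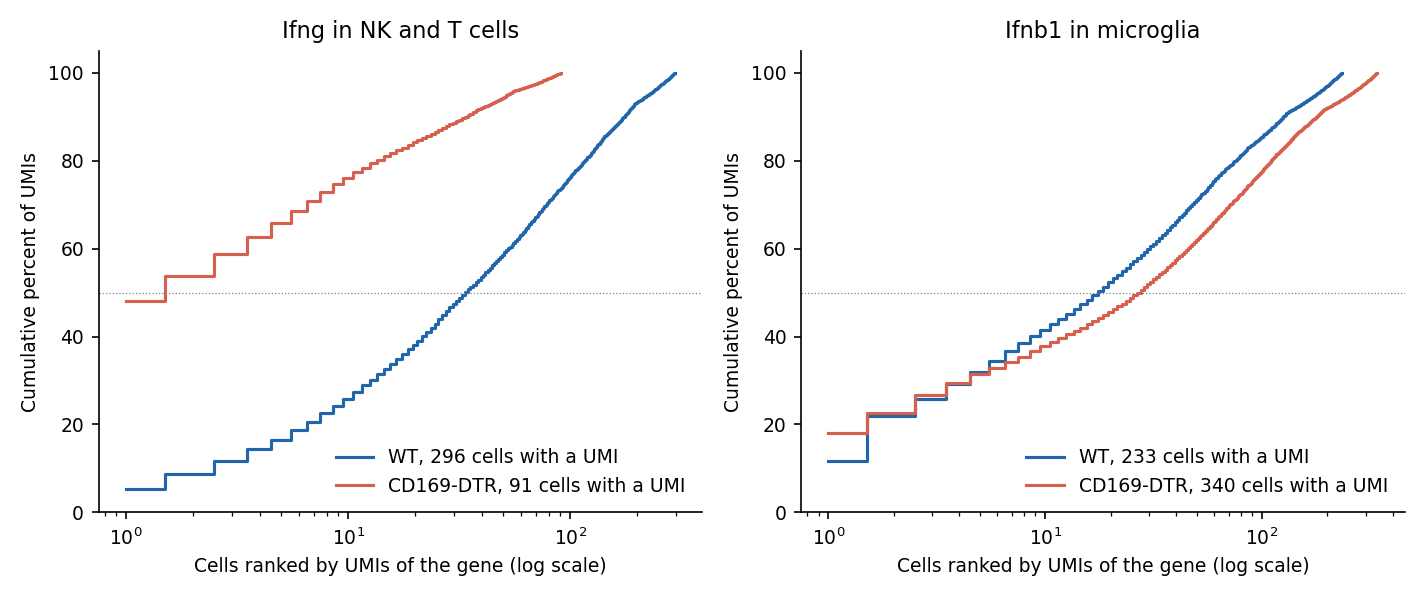
Cumulative percent of Ifng UMIs in NK and T cells (left) and of Ifnb1 UMIs in microglia (right) against the rank of the cells by their UMIs of that gene (log scale), with 1 line per library. The CD169-DTR line for Ifng starts at 48.1% with its top cell, whereas the WT line starts at 5.27%, and the Ifnb1 lines of both libraries start at 11.8% and 18.0%.

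The share of cells with an Ifng UMI depends less on single cells. After thinning every cell to 4000 UMIs, 42.6% (36.5 to 48.9) of 258 WT NK cells and 42.7% (31.3 to 54.6) of 75 CD169-DTR NK cells held Ifng. In T cells the shares were 21.4% (17.5 to 25.9) of 387 and 14.0% (9.34 to 19.8) of 186, so the intervals overlapped. Without thinning they were 51.2% and 50.6% in NK cells and 27.0% and 21.7% in T cells. Microglia, which are not known as a main source of IFN-γ, held Ifng in 0.347% and 0.119% of thinned cells, with medians of 7673.5 and 7900 UMIs against 5566 and 6647 in NK cells and 6517 and 6642 in T cells.

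The few Ifng UMIs outside lymphocytes were at the level of free RNA or in single cells. Microglia held 47 UMIs in WT and 10 in CD169-DTR, where the estimate of free RNA gave 61.7 and 36.2. Of the microglia with Ifng, 31 of 33 in WT and 10 of 10 in CD169-DTR held 1 UMI. In macrophages, 16 of the 19 CD169-DTR UMIs were in 1 cell, and WT held 7 UMIs in 6 cells. Among Cd209a-high cells, a cluster led by Cd209a and MHC class II genes that received no cell type name, 1 WT cell held 13 of 22 UMIs. Only 5 WT cells and 0 CD169-DTR cells held both Ifng and Ifnb1.

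**Figure D2:**
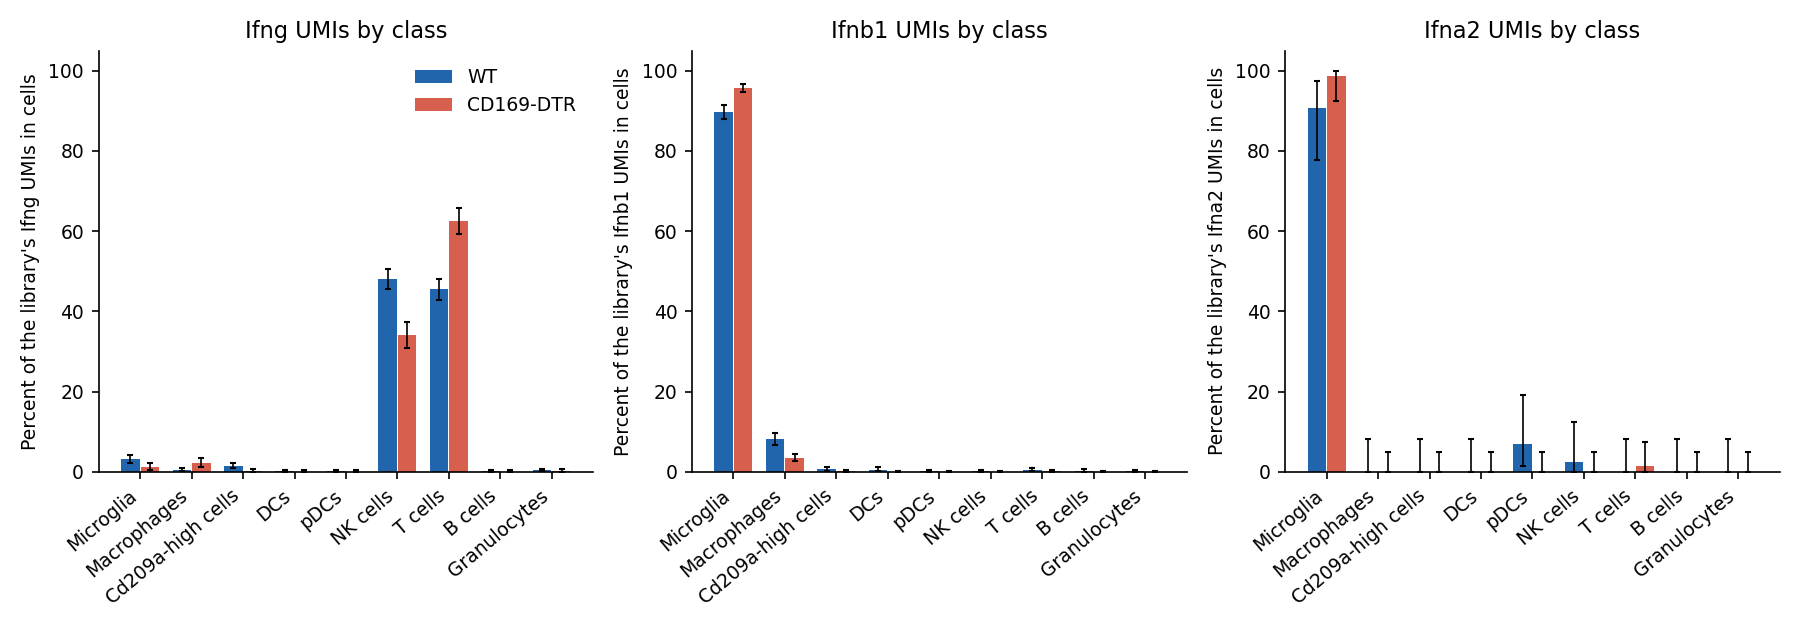
Percent of each library's Ifng, Ifnb1 and Ifna2 UMIs in cells that lay in each immune class, with exact 95% intervals for counting error. Ifng lay in NK and T cells (93.6% in WT, 96.5% in CD169-DTR), and Ifnb1 (89.8% and 95.8%) and Ifna2 (90.7% and 98.6%) lay in microglia.

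Clustered on their own, NK and T cells fell into 12 subclusters, and among the subclusters of over 10 cells in both libraries Ifng was most frequent in 2 of NK cells. The largest, led by the Ly49 receptors Klra4 and Klra8 and by the granzyme Gzma, held 450 UMIs in 108 of 223 WT cells (48.4%) and 221 UMIs in 35 of 67 CD169-DTR cells (52.2%). A smaller NK subcluster was led by Ifng itself, which had been left out of the genes used for clustering, and by Ifi44, an interferon-induced gene, the granzyme Gzmb, and the chemokines Xcl1 and Cxcl10. There, 33 of 47 WT cells (70.2%) and 9 of 13 CD169-DTR cells (69.2%) held Ifng, with 188 and 484 UMIs. Another, shallow NK subcluster, with a median of 1512 UMIs, held 21 and 1 UMIs.

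The CD169-DTR cell with 409 Ifng UMIs belonged to the T cell cluster of all cells but to the NK subcluster led by Ifi44. It held 3 UMIs of Cd3e, 13 of Cd3d, 8 of Cd3g and 12 of Trbc2, which encode the T cell receptor complex, and 62 of the antiviral gene Isg15. It held 0 UMIs of Cd8a, of Trac and of the NK lectin gene Klre1. Without the top cell of each library, Ifng in this subcluster stood at 620 CPM in WT and 859 CPM in CD169-DTR, against 725 and 5068 CPM with all cells.

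Of the T cell subclusters, the CD8 T cells with Gzmk held the most Ifng UMIs. They held 302 UMIs in 63 of 191 WT cells (33.0%) and 77 UMIs in 24 of 77 CD169-DTR cells (31.2%). Thinned to 4000 UMIs, the shares were 28.1% (38 of 135) and 16.7% (10 of 60). Its level was 253 CPM in WT and 151 CPM in CD169-DTR, a log2 ratio of 0.75 (0.38 to 1.13). An unnamed subcluster led by Klra6, Klra1 and Cd160 held 152 and 23 UMIs at 365 and 122 CPM, a log2 ratio of 1.58 (0.95 to 2.29), with 40.9% and 41.7% of cells positive, or 34.4% and 25% after thinning. Dividing cells held 55 and 9 UMIs at 107 and 106 CPM, in 8 of 22 and 4 of 7 cells.

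Other T cell states held little Ifng. Cells led by Igfbp4, Lef1 and Tcf7, genes of resting T cells, held 0 UMIs in 20 WT and 38 CD169-DTR cells. Gamma-delta T cells held 7 UMIs in 2 of 39 WT cells and 0 in 15 CD169-DTR cells. Regulatory T cells (Tregs), which restrain other T cells and are marked by Foxp3, held 87 UMIs in 6 of 45 WT cells, but 75 of these were in 1 cell of 35027 UMIs that held 0 Foxp3 UMIs, and 0 in 23 CD169-DTR cells. CD8 cells led by Dusp10 and Ccr7 held 15 and 10 UMIs. The mixed subclusters held 145 UMIs in WT and 26 in CD169-DTR, and their part in the lymphocyte values was not tested beyond leaving them out.

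**Figure D3:**
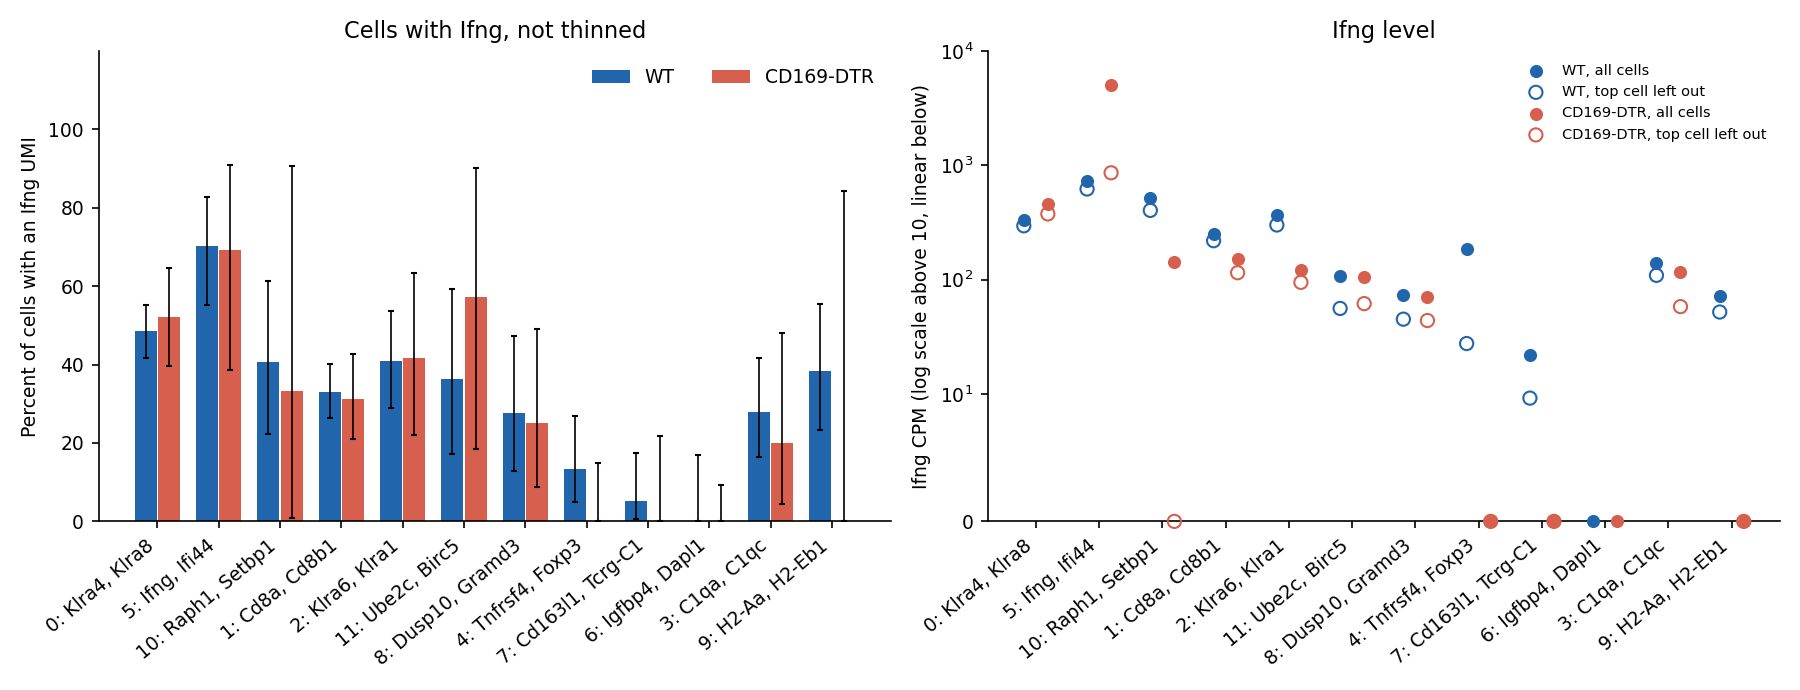
Percent of cells with an Ifng UMI, not thinned and with exact 95% intervals (left), and Ifng level in CPM (right, log scale above 10) in the 12 subclusters of NK and T cells, named by number and leading genes. Filled points are all cells and open symbols leave out the top cell of each library, which moves the CD169-DTR value of the Ifng- and Ifi44-led subcluster from 5068 to 859 CPM.

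T cells that held Ifng also held more transcripts of killing molecules and of activation genes than T cells that did not, in both libraries. At 4000 UMIs per cell, 83 WT T cells with Ifng were set beside 304 without, and 26 CD169-DTR cells beside 160. These cells were not matched by subcluster, and no comparison within a subcluster was made. Before thinning, the resting Lef1-led cells, which held 0 Ifng UMIs, were 20 of 474 WT and 38 of 217 CD169-DTR T cells. A gene counts as past the fold when its log2 difference is at least 0.5 in size, and 12.9% of 6767 genes in WT and 27.8% of 4375 in CD169-DTR were past it upwards. Of the killing molecules with enough counts, 5 of 6 in WT and 3 of 5 in CD169-DTR were past the fold upwards. Gzmb stood at 849 CPM in WT cells with Ifng and 494 CPM in those without, and at 798 and 169 CPM in CD169-DTR. The chemokine gene Xcl1 stood at 768 against 250 CPM and at 346 against 163 CPM.

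Of the activation genes, 7 of 13 in WT and 7 of 11 in CD169-DTR were past the fold upwards, among them in both Nr4a1, Xcl1, Cd69 and Myc. The chemokine gene Ccl3 lay the other way, with 87.3 CPM in WT T cells with Ifng against 150 CPM in those without and 38.5 against 103 CPM in CD169-DTR. Of the IFN-γ programme, the transcription factor genes Tbx21 and Stat4 and the IL-18 receptor subunit Il18rap were past the fold in both libraries. The 5 genes with the highest values in both libraries were Klra1, Serpinb6b, Errfi1, Xcl1 and Klrb1c, of which Klra1 stood at 133 against 46.9 CPM in WT and 144 against 45.3 CPM in CD169-DTR.

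The antiviral and division genes of Ifng-positive T cells had different values in the libraries, a difference that was not tested. Of the early antiviral genes (Ifit1, Ifit2, Ifit3, Isg15, Rsad2, Oasl1, Cmpk2 and Gbp5), 2 of 8 in WT and 7 of 7 in CD169-DTR were past the fold upwards, with medians of 0.30 and 1.14. Isg15 stood at 1614 against 1347 CPM in WT and at 1356 against 364 CPM in CD169-DTR. The median of the division genes was -0.57 over 6 genes in WT and 1.62 over 4 in CD169-DTR, and the WT value turned to 0.36 when cells were thinned to 2000 UMIs. Top2a, a topoisomerase of dividing cells, had 15 UMIs in WT cells with Ifng and 7 in those of CD169-DTR.

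NK cells with and without Ifng were compared in the same way, again not matched by subcluster. In WT, 110 NK cells held Ifng and 148 did not, and in CD169-DTR 32 and 43. Of all genes, 12.8% of 5597 in WT and 13% of 2194 in CD169-DTR were past the fold upwards. Of the killing molecules, 0 of 5 were past the fold in either library. Of the early antiviral genes, 7 of 8 were past it upwards in WT, with a median of 0.79, and 1, Isg15, had enough counts in CD169-DTR, with 438 against 233 CPM. The highest genes in both libraries were Cxcl10, Myc, Ccl3, Plac8 and Ddit3. The chemokine gene Cxcl10 stood at 714 against 367 CPM in WT and 227 against 93.0 CPM in CD169-DTR, and the transcription factor gene Myc at 173 against 96.3 and 195 against 69.8 CPM.

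Ifnb1 came from microglia. WT cells held 1255 Ifnb1 UMIs in 271 cells, and 1127 of them (89.8%, 88.0 to 91.4) were in microglia. CD169-DTR cells held 1831 UMIs in 363 cells, of which 1754 (95.8%, 94.8 to 96.7) were in microglia. The level in microglia was 26.3 CPM (24.8 to 27.9) in WT and 33.7 CPM (32.1 to 35.3) in CD169-DTR, a log2 ratio of -0.36 (-0.47 to -0.25), and -0.25 and -0.37 without the top cell or top 5 cells of each library. Without the 2% of microglia with most Ifnb1, which left 174 and 359 UMIs, it was -0.77 (-1.04 to -0.50). After thinning, 3.24% (2.73 to 3.81) of 4320 WT microglia and 4.10% (3.57 to 4.68) of 5029 CD169-DTR microglia held Ifnb1, and 4.95% and 6.35% without thinning. The 645 thinned WT NK and T cells held 0 cells with Ifnb1, which allows a share of cells with a UMI of up to 0.465%, and 1 of 261 in CD169-DTR did (0.383%), with medians of 6123 and 6644.5 UMIs.

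Macrophages held little Ifnb1. They held 101 UMIs in 19 WT cells (8.05% of the library's UMIs) and 64 UMIs in 13 CD169-DTR cells (3.50%), at 5.49 and 6.66 CPM. The 5 cells with most held 77.2% and 81.3% of these. Thinned shares were 0.467% and 1.37%. When cells of high doublet score were left out, WT macrophages held 2.40% of the Ifnb1 UMIs. The pDCs, which express Ifnb1 and Ifna genes in viral infection, held 1 Ifnb1 UMI in 102 WT cells and 0 in 11 CD169-DTR cells, and 0 of 11 cells allows a share of cells with a UMI of up to 27.3%. These limits concern detection and not expression.

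Few microglia made most of the Ifnb1. In WT, the top cells held 133 and 114 UMIs, and 18 cells held 50% of the microglial UMIs. In CD169-DTR, the top cells held 316, 79 and 72 UMIs, and 27 cells held 50%. Over all cells, 24 WT and 36 CD169-DTR cells held 10 or more Ifnb1 UMIs and together held 53.2% and 54.2% of all. Of the microglia with Ifnb1, 102 of 233 and 148 of 340 held 1 UMI. The top 5 microglia held 32.0% of the microglial Ifnb1 UMIs in WT and 31.5% in CD169-DTR, whereas the top 5 NK and T cells held 16.5% and 65.8% of their Ifng UMIs.

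Ifnb1 was unevenly spread over the microglial clusters. Microglia led by Ccl12 and Cxcl10, chemokine genes that interferon induces, held the most, with 612 UMIs in 529 WT cells and 557 UMIs in 413 CD169-DTR cells. Their level was 119 and 136 CPM, and 9.13% and 9.87% of thinned cells were positive. Without the top cell of each library the levels were 93.2 and 59.2 CPM, so that the log2 ratio went from -0.20 to 0.66. Dividing microglia led by Mki67 came next in level in WT, with 35.5 CPM, and stood at 43.7 CPM in CD169-DTR, with 6.84% and 8.88% of cells positive. Homeostatic microglia led by P2ry12, a receptor of resting microglia, held 11 UMIs in 1311 WT and 30 UMIs in 1873 CD169-DTR cells, at 1.49 and 2.61 CPM.

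The higher Ifnb1 of CD169-DTR lay in other microglia. Those led by Cst7, Lpl and complement genes, a state known from brain disease, held 75 UMIs at 11.4 CPM in WT and 270 UMIs at 32.4 CPM in CD169-DTR, a log2 ratio of -1.51 (-1.90 to -1.13). Those led by the cytokine gene Il1a and by Atf3, Tnf and Ccl4 held 73 UMIs at 19.8 CPM and 307 UMIs at 53.0 CPM, a log2 ratio of -1.42 (-1.81 to -1.05). Those led by Uhrf1 and the Mcm helicases of DNA synthesis held 11 and 97 UMIs at 5.18 and 37.5 CPM, a log2 ratio of -2.86 (-3.91 to -1.95). Without the top cell of each library these 3 ratios were -1.59, -1.22 and -3.75. In the Il1a-led microglia of CD169-DTR, single cells held 79, 50 and 36 of the 307 UMIs. Much of that ratio therefore rested on few cells, and its value without all of them is not given. Thinned shares of positive cells were 2.48% and 5.23% in the Cst7-led, 4.21% and 5.50% in the Il1a-led and 0.541% and 6.91% in the Uhrf1-led microglia. Those led by Spp1 and Igf1 stood at 16.1 and 22.0 CPM.

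**Figure D4:**
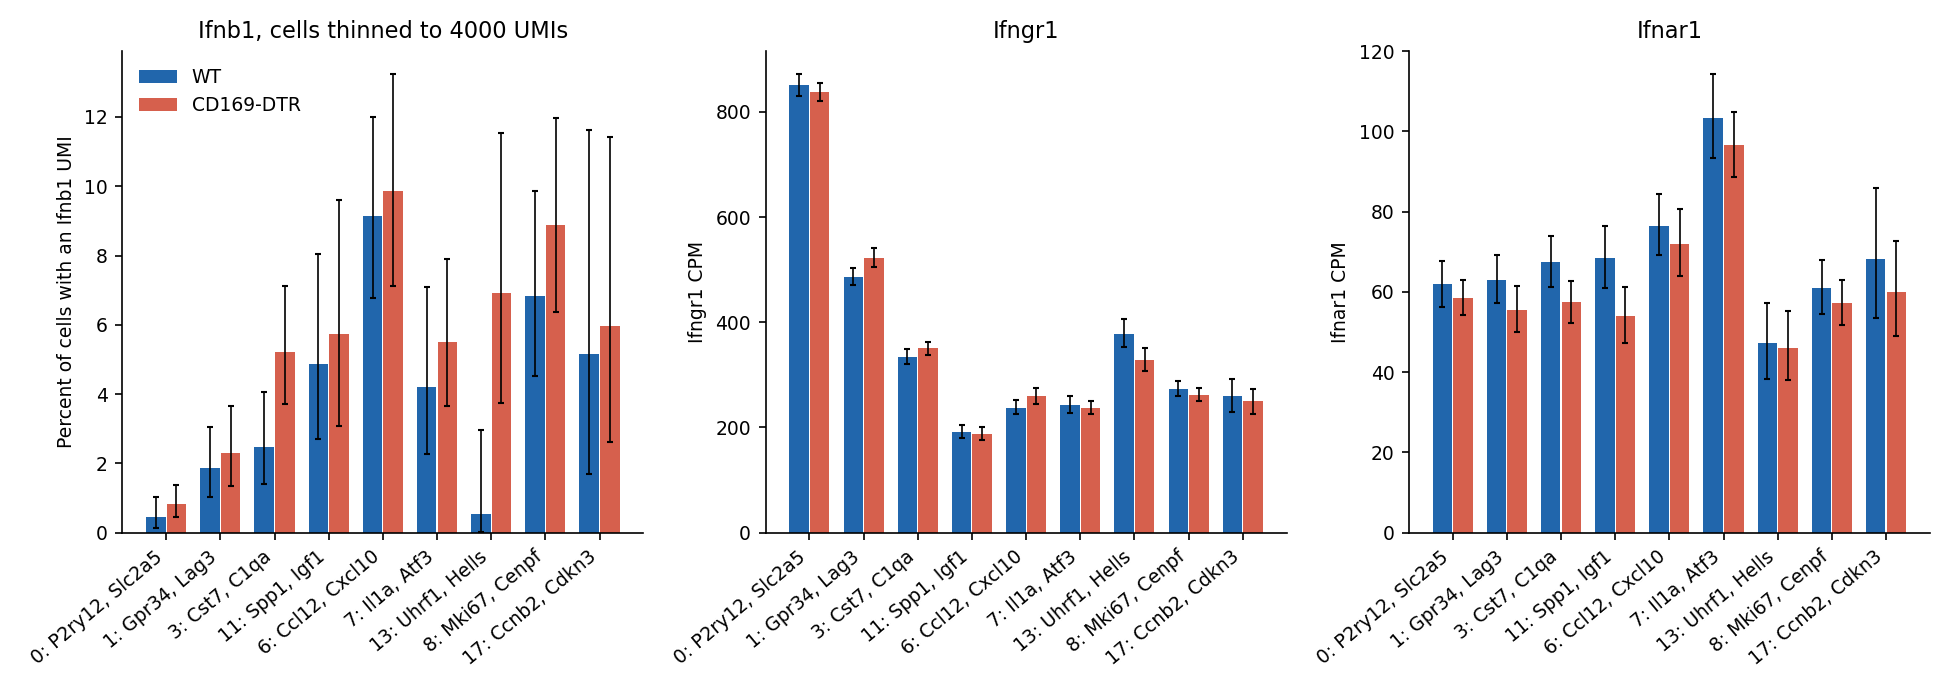
Percent of thinned microglia with an Ifnb1 UMI (left) and the levels of Ifngr1 (middle) and Ifnar1 (right) in CPM over the 9 microglial clusters, named by number and leading genes, with exact 95% intervals. Ifnb1 was most frequent in the Ccl12-led cluster (9.13% and 9.87%), Ifngr1 was highest in the P2ry12-led cluster (852 and 838 CPM), and Ifnar1 in the Il1a-led cluster (103 and 96.5 CPM).

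Microglia with Ifnb1 were set beside microglia without it at 4000 UMIs per cell, 140 against 4180 in WT and 206 against 4823 in CD169-DTR. Of all genes with enough counts, 16.8% of 11506 in WT and 15.3% of 11747 in CD169-DTR were past the fold upwards. The early antiviral genes were past it upwards in 8 of 8 in both libraries, with medians of 1.67 and 1.45. Rsad2, which encodes the antiviral enzyme viperin, stood at 804 against 150 CPM in WT and 382 against 93.3 CPM in CD169-DTR. Isg15 stood at 2266 against 666 CPM and 1246 against 437 CPM.

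Of the cytokine genes known to be driven by NF-κB, 10 of 10 in WT and 9 of 10 in CD169-DTR were past the fold upwards, with medians of 1.57 and 1.07. Tnf stood at 548 against 168 CPM in WT and 618 against 211 CPM in CD169-DTR. Il12b, which encodes the p40 subunit of IL-12 and led the ranking of all genes, stood at 266 against 2.39 CPM in WT and 34.0 against 2.33 CPM in CD169-DTR. These Il12b UMIs were in 18 of the 140 WT cells (12.9%), 26 of them in 1 cell, and in 7 of the 206 CD169-DTR cells (3.40%), 14 of them in 1 cell. The next were H2-M2, Cxcl9, Dnase1l3 and Slc39a2, and H2-M2 lay in 6 and 3 cells only.

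Of the genes that sense nucleic acids and induce type I interferon, 7 of 16 in WT and 4 of 16 in CD169-DTR were past the fold upwards, in both Irf7, Tlr9, Ddx58 and Ifih1. Of the division genes, 5 of 6 and 6 of 6 were, with medians of 0.53 and 1.08, and Mki67 stood at 146 against 85.0 CPM and 183 against 85.8 CPM. Killing molecules of NK cells also stood higher in WT microglia with Ifnb1, where Gzma had 14 UMIs in 6 cells (25 against 3.35 CPM), 9 of them in 1 cell, against 1 UMI in those of CD169-DTR. The part of cell doublets in this was not tested. Ifngr1 was lower in the microglia with Ifnb1, at 237 against 481 CPM in WT (log2 -1.02) and 301 against 529 CPM in CD169-DTR (log2 -0.81), whereas Ifnar1 differed by 0.19 and -0.03 on the log2 scale. These cells were not matched by cluster. Before thinning, the P2ry12-led cluster, where Ifngr1 was highest, was 27.9% and 35.0% of microglia but 3.86% and 6.47% of those with Ifnb1. No comparison within a cluster was made.

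Ifna2 was held by microglia at a much lower level than Ifnb1, and in part by the same cells. WT held 43 Ifna2 UMIs in 28 cells, of which 39 UMIs were in microglia and 3 in pDCs. CD169-DTR held 72 UMIs in 40 cells, of which 71 were in microglia. The microglial level was 0.910 CPM (0.647 to 1.24) and 1.36 CPM (1.07 to 1.72). In WT pDCs the 3 UMIs gave 2.53 CPM (0.522 to 7.39), a wide interval that overlapped that of microglia. The highest cells held 6 and 7 UMIs. Of the Ifna2-positive cells, 9 in WT (32.1%) and 15 in CD169-DTR (37.5%) also held Ifnb1, which was 3.32% and 4.13% of the Ifnb1-positive cells. Of all cells, 2.68% in WT and 4.77% in CD169-DTR held Ifnb1.

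Ifna4 had 1 UMI in WT and 1 in CD169-DTR, each in a microglial cell. Over the 15 other type I interferon genes the libraries held 6 and 8 UMIs, 5 in each of Ifnz. These family members share sequence, and reads that match several copies may be lost or moved between them in counting, so single UMIs cannot be assigned with certainty. Of the type III interferons, Ifnl2 had 16 UMIs in WT, 14 of them in pDCs, and 0 in CD169-DTR, where 11 pDCs were counted. Ifnl3 had 3 UMIs in 1 WT dendritic cell.

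UMIs of the receptor genes were found in all 9 immune classes described, and the order of the classes differed between the genes. Ifngr1, the ligand-binding subunit for IFN-γ, was highest in NK cells, with 931 CPM (891 to 974) in WT and 690 CPM (629 to 757) in CD169-DTR. T cells followed at 547 CPM (524 to 570) and 613 CPM (575 to 653), then microglia at 406 CPM (400 to 412) and 431 CPM (425 to 436). Cd209a-high cells stood at 262 and 275 CPM and macrophages at 192 and 251 CPM. Granulocytes (185 and 173 CPM), dendritic cells (165 and 221 CPM) and B cells (150 and 115 CPM) lay below, with overlapping intervals between WT granulocytes, dendritic cells and B cells. The pDCs were lowest at 56.5 CPM (43.8 to 71.8) and 66.4 CPM (30.3 to 126).

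Ifngr2, the subunit that carries JAK2, had another order. It was highest in microglia (192 and 190 CPM), granulocytes (179 and 180 CPM) and macrophages (171 and 146 CPM), and the intervals of granulocytes overlapped those of both in WT. It stood at 100 and 88.5 CPM in pDCs and at 86.9 and 67.1 CPM in B cells. NK cells and T cells were lowest, at 30.7 and 28.8 CPM in WT and 21.2 and 23.3 CPM in CD169-DTR, not apart from each other. Without the mixed subclusters, NK and T cells together held 9.04 CPM (6.57 to 12.1) in WT and 14.0 CPM (9.33 to 20.3) in CD169-DTR, and the mixed cells alone held 104 and 91.4 CPM. Ifngr1 in the same lymphocytes was 723 and 644 CPM. The estimate of free RNA gave 22.0 of the 65 Ifngr2 UMIs of WT NK cells and 31.8 of the 118 of WT T cells. In CD169-DTR it gave 5.88 of 14 and 14.7 of 37. Without the mixed subclusters 44 Ifngr2 UMIs were left in 709 WT cells and 28 in 287 CD169-DTR cells. Free RNA was put at 525 and 417 UMIs per lymphocyte outside these subclusters (B cells included), with Ifngr2 at 128 and 162 CPM of it. At those rates free RNA alone would give at least the number found in WT, and fewer than the number found in CD169-DTR.

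The subunits of the type I receptor were highest in pDCs. Ifnar1 stood there at 284 CPM (255 to 316) in WT and 184 CPM (119 to 272) in CD169-DTR, the latter from 25 UMIs. Cd209a-high cells and macrophages followed at 113 and 112 CPM in WT and at 89.7 and 88.2 CPM in CD169-DTR, and did not differ beyond counting error. T cells were lowest in WT with 61.3 CPM (54.0 to 69.4), within counting error of microglia at 68.2 CPM (65.8 to 70.7) and NK cells at 72.8 CPM (61.8 to 85.3). Ifnar2 stood in pDCs at 326 CPM (295 to 361) and 354 CPM (261 to 469), followed by microglia at 205 and 193 CPM and macrophages at 147 and 153 CPM. NK cells (75.7 and 72.5 CPM) and T cells (70.8 and 65.0 CPM) were at the low end in WT.

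**Figure D5:**
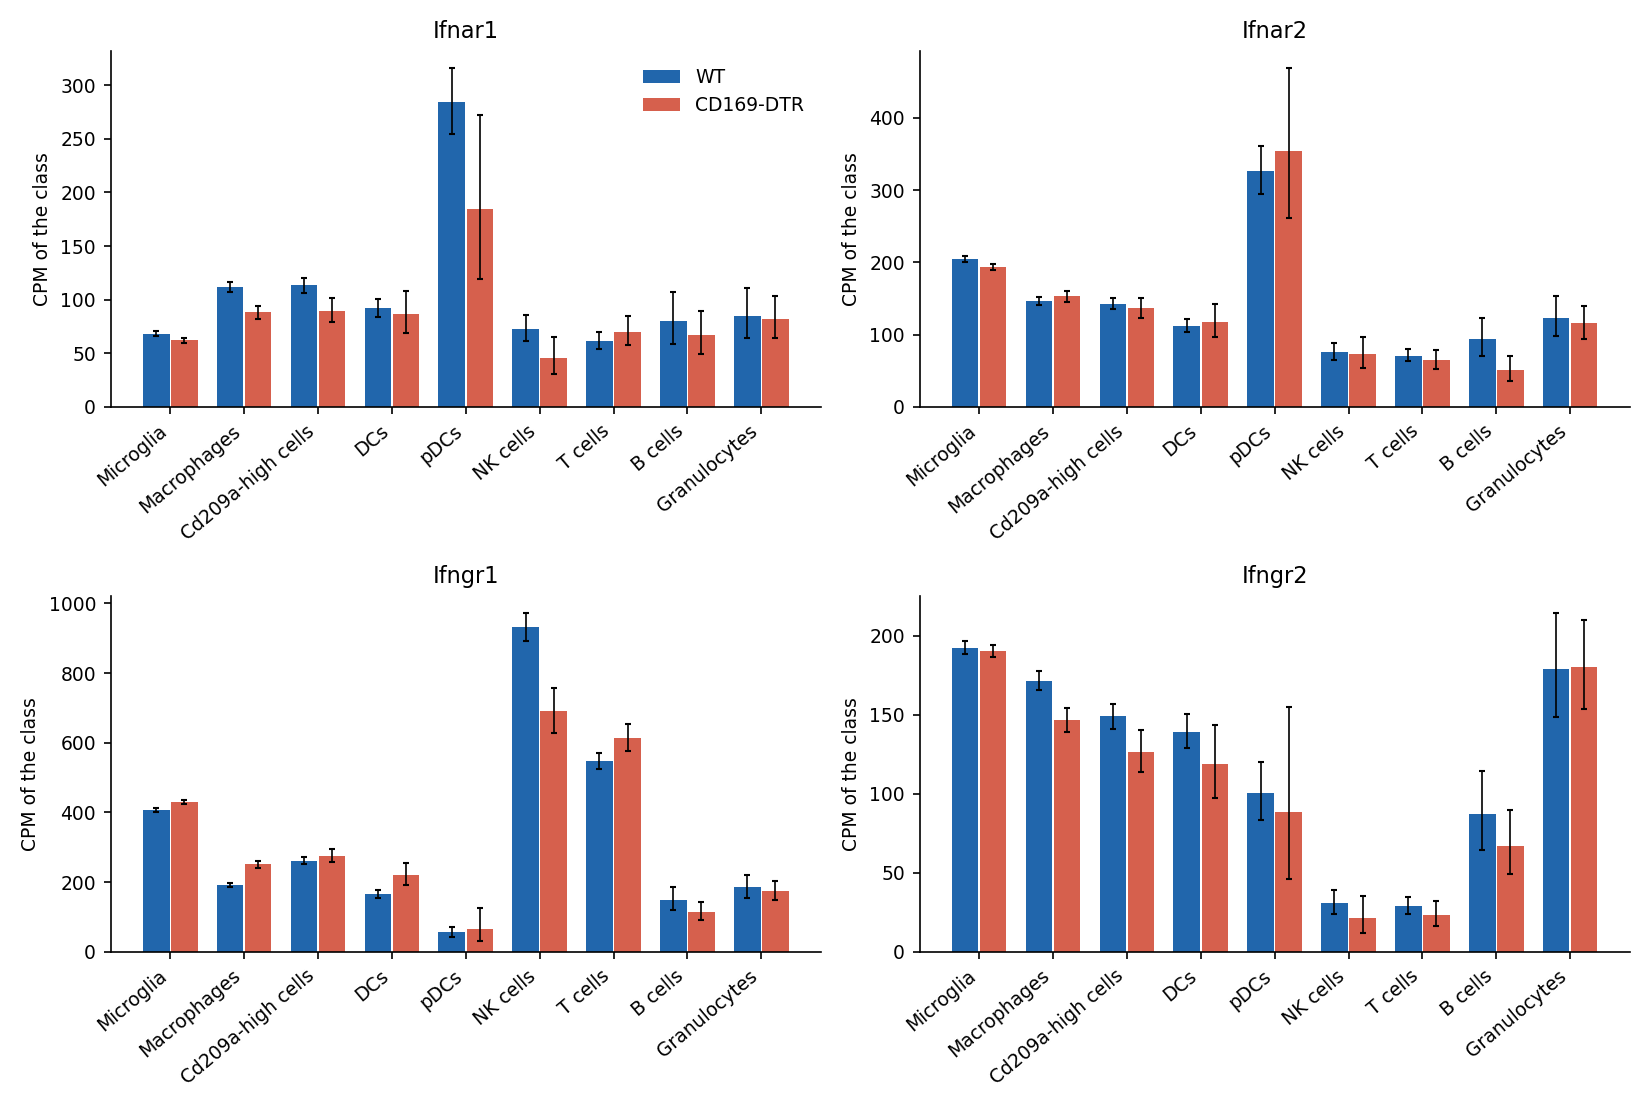
Levels of Ifnar1, Ifnar2, Ifngr1 and Ifngr2 in CPM in the 9 immune classes of the WT and CD169-DTR libraries, with exact 95% Poisson intervals for counting error. Ifngr1 was highest in NK cells (931 and 690 CPM) where Ifngr2 was low (30.7 and 21.2 CPM), and Ifnar1 (284 and 184 CPM) and Ifnar2 (326 and 354 CPM) were highest in pDCs.

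Receptor levels also differed within classes. Among microglia, Ifngr1 went from 852 and 838 CPM in the P2ry12-led cluster to 192 and 188 CPM in the Spp1-led cluster, with nearly the same values in WT and CD169-DTR. The other 3 receptor genes had a narrower range over the microglial clusters, with Ifnar1 from 47.1 to 103 CPM in WT and highest in the Il1a-led cluster in both libraries. Ifnar2 was lowest in that same Il1a-led cluster, at 137 and 132 CPM. Among T cells, Ifngr1 was highest in the CD8 subcluster led by Dusp10 and Ccr7, at 1443 and 1205 CPM. The resting Lef1-led subcluster, which held no Ifng UMI, held 339 CPM in WT and 141 CPM in CD169-DTR, from 31 and 32 UMIs.

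Receptor genes were past the fold between WT and CD169-DTR in 3 of the 9 classes (NK cells, pDCs and B cells), here a log2 ratio between the libraries of at least 0.5 in size among genes with at least 20 UMIs. In microglia, 0 of 4 receptor genes were past it, where 4.64% of 13743 genes were past it towards WT and 5.51% towards CD169-DTR. In macrophages, 0 of 4 were, where 10.6% and 9.97% of 11744 genes were. In T cells, 0 of 4 were, where 19.5% and 7.74% of 9896 genes were. In NK cells, Ifnar1 (log2 0.68, 0.11 to 1.30) and Ifngr2 (log2 0.54, -0.31 to 1.49) were past it towards WT, where 15% and 12.4% of 8370 genes were past it towards WT and CD169-DTR. These 2 rested on 30 and 14 CD169-DTR UMIs, and the Ifngr2 ratio turned to -1.94 when cells of high doublet score were left out and to -0.15 with cells typed by their own marker UMIs.

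In pDCs, Ifnar1 was past it towards WT (log2 0.62, 0.04 to 1.27), from 25 CD169-DTR UMIs, where 31.9% and 14.2% of 6390 genes were past it towards WT and CD169-DTR. In B cells, Ifnar2 was past it towards WT (log2 0.89, 0.24 to 1.55), from 54 and 34 UMIs, where 17.3% and 17.2% of 6249 genes were. No receptor gene was past it in Cd209a-high cells, dendritic cells or granulocytes. For these classes the share of all genes past the fold is not given here or below, so counts in them have no such background.

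Ifngr1 lay in different directions in NK cells and macrophages, within the fold. The log2 ratio was 0.43 (0.28 to 0.58) in NK cells, -0.17 (-0.27 to -0.06) in T cells and -0.39 (-0.46 to -0.31) in macrophages. In the Ms4a7-led macrophages it was -0.34 and in the F10- and Ly6c2-led macrophages -0.46. Microglia stood at -0.08 (-0.11 to -0.06). Ifnar1 had log2 ratios of 0.34 (0.22 to 0.46) in macrophages and 0.14 (0.06 to 0.21) in microglia.

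Of the other members, Ifng was past the fold towards WT in microglia, from 47 and 10 UMIs at the level of free RNA. In Cd209a-high cells it was too, from 22 and 1 UMIs (9 and 0 without the top cell of each library). Towards CD169-DTR it was past it in T cells and in macrophages, there from 7 and 19 UMIs (5 and 3 without the top cells). In microglia 4.64% of all genes were past the fold towards WT and 5.51% towards CD169-DTR. In macrophages and T cells 9.97% and 7.74% were past the fold towards CD169-DTR. Ifna2 was past it towards CD169-DTR in microglia. Ifnb1 was within it in microglia and macrophages.

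Early antiviral genes, which lie downstream of the receptors, stood higher in WT by their median in all 9 immune classes described. Of the early antiviral genes, 7 of 8 in microglia, 8 of 8 in macrophages, 8 of 8 in NK cells and 7 of 8 in T cells were past the fold towards WT, and 0 towards CD169-DTR. Their medians were 0.69, 1.61, 2.32 and 1.09, beside medians of -0.04, -0.04, -0.01 and 0.10 over all genes. Of all genes, 4.64%, 10.6%, 15% and 19.5% were past the fold towards WT in these classes. In Cd209a-high cells and granulocytes 8 of 8 early antiviral genes were, with medians of 1.31 and 1.53. In B cells, dendritic cells and pDCs 7 of 8, 5 of 8 and 5 of 7 were, with medians of 2.29, 0.65 and 0.92. Medians over all genes were -0.02 in Cd209a-high cells, -0.13 in granulocytes and -0.03 in dendritic cells. In pDCs 1 of 7 was past it towards CD169-DTR. Transcripts of lymphocytes lay the same way in the WT myeloid classes, where the killing molecules were past the fold towards WT in 3 of 3 in microglia (median 2.41) and 4 of 4 in macrophages (median 1.81), and the IFN-γ programme of T and NK cells in 6 of 9 in microglia (median 0.87). Their part in the antiviral values was not tested. In microglia, Ifit1 stood at 156 and 84.6 CPM and Isg15 at 810 and 547 CPM. Microglia, the class with most Ifnb1, had more Ifnb1 in CD169-DTR and more antiviral transcripts in WT.

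Of the genes that carry the signal, Stat2 was past the fold towards WT in microglia, macrophages, NK cells and T cells. Its log2 ratio was 0.59 for microglia, 1.03 for macrophages, 0.87 for NK cells and 1.32 for T cells. Jak1, which serves both receptors, lay between -0.31 and 0.06. Of the brakes on the receptors, Usp18, which encodes a protein that blocks IFNAR2 signalling, was past the fold towards WT in the 4 classes, alone in microglia and NK cells, with Socs1 in macrophages and with Ptpn6 in T cells.

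The list of genes that make up the IFN-γ programme of T and NK cells, with Tbx21, Eomes, Stat4 and the IL-12 and IL-18 receptor genes, had 0 of 10 past the fold in NK cells and 1 of 10, Il12rb1, in T cells. Of the killing molecules, 1 of 6, Gzmb, was past the fold towards WT in NK cells, near the background of 15% of all genes and with a median of -0.34 over the list. In T cells 2 of 6, Gzma and Gzmb, were, beside 19.5% of all genes. The division genes were past it towards WT in 6 of 6 in T cells and towards CD169-DTR in 5 of 6 in macrophages. The genes that induce type I interferon were past it towards WT in 3 of 16 in microglia (Irf7, Ikbke and Tlr9), 6 of 16 in macrophages, 7 of 15 in NK cells and 6 of 14 in T cells, beside 4.64%, 10.6%, 15% and 19.5% of all genes. Tlr4 in NK cells and Ikbke and Mavs in T cells were past it towards CD169-DTR. Those towards WT included Tlr7 in NK cells and Irf5 and Irf8 in T cells. All list values of NK and T cells between the libraries include the mixed subclusters (93 WT and 17 CD169-DTR cells). None was computed without them.

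The genes whose levels ran most like each member were ranked by Pearson's r over log2 CPM among 14048 genes. For Ifng, over 8 classes in 2 libraries (16 points), they were Ctsw, Zap70, Cysltr2, Nkg7 and Fasl, with r from 0.980 to 0.985. The pDCs, with 11 CD169-DTR cells, fell under the minimum of 20 and were left out of all rankings over classes. For Ifnb1, over 24 clusters in 2 libraries (48 points), they were Ccl12 (r = 0.869), Ccl2, Lgals3bp, Gpr84 and Ctsz. For Ifngr2, Spi1, Nrros, Prkcd and Hsd17b11 were among them. For Ifngr1 they were Slc12a7, Fbxo17, Pvrig, Chad and Ccdc148, for Ifnar2 Acer3, Cttnbp2nl, Gm16192, Tns3 and Rnpep, and for Ifnar1 Dck, Stard5, Rnf34, Ifi211 and Ly6i. The points share libraries, depth and free RNA, and r describes them only.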

How the data were processed

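The measurements were UMI counts of 2 droplet libraries (10x 3' chemistry), 1 of WT and 1 of CD169-DTR mice. The authors made the deposited counts with Cell Ranger on mm10, as raw UMI counts of all barcodes without normalization. Groups came from the genotype labels. Cells were barcodes of 1000 or more UMIs with a mitochondrial share of 17% or less. Libraries were integrated on 50 dimensions and clustered on 30 dimensions of 2000 variable features, with the interferon and receptor genes left out, at resolution 1 (Seurat 5.3.0 in R 4.3.3). NK and T cells were clustered again on 20 dimensions at resolution 0.5. Names needed 3 detected markers, and the limits for naming were chosen with the data in view. Doublets were kept, with removal by Scrublet score (scanpy 1.11.5) as an alternative.

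Levels are the summed UMIs of a gene in a class of 1 library per 1000000 UMIs of that class (CPM). The lists and the 8 genes were chosen with earlier results of these data known, and the separate handling of the mixed subclusters and the removal of the 2% of cells with most UMIs were added after the data were seen. With 1 library per group no test was made. Intervals were exact at 95% (Clopper-Pearson for shares, Poisson for CPM, conditional binomial for ratios), the limit of a count of 0 was 3 counts, and all cover counting error only. Cells were thinned to 4000 UMIs for shares and for cells with against without a gene, where 0.5 was added to counts in list medians. Free RNA was gauged by the microglial markers found in lymphocytes and by barcodes of 10 to 100 UMIs. Named genes are the 8 members, list genes given by counts, the 5 highest in both libraries for cells with against without Ifng or Ifnb1 (at least 30 UMIs per library) and the 5 most alike. A gene of the likeness ranking and a gene of the signalling list, with that list's counts, are not reported here. Python 3.11.15, numpy 2.4.6, scipy 1.17.1 and pandas 2.3.3 were used, and the interval and fold code was tested on simulated data.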

Additional observations from a re-analysis of the deposited data

Results flagged for a closer look

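Barcodes that were not kept as cells held interferon UMIs, which no comparison above used. They held 154 Ifng UMIs in WT (9.20% of all) and 73 in CD169-DTR (7.64%), and 129 (9.32%) and 241 (11.6%) Ifnb1 UMIs.

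In T cells with an Ifng UMI against those without, the median log2 difference of the division genes was -0.57 in WT and 1.62 in CD169-DTR, and the difference between the libraries was not tested. The CD169-DTR value rests on 26 cells, and the WT value became 0.36 when cells were thinned to 2000 UMIs.

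The log2 ratio of Ifngr1, WT over CD169-DTR, was 0.43 in NK cells and -0.39 in macrophages, and this difference was not tested.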

How the results depend on the processing

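Over 74 values, 681 alternatives were computed, of which 579 counted as the same, 91 as moved and 11 as reversed. The same means within the counting interval of the main value, or within a fixed limit where none was used. Reversed means a change of sign from a main log2 value of at least 0.5 in size. Smaller values that changed sign do not count as reversed, such as Ifng in NK cells from -0.39 to 0.43 without the top 5 cells. No paired analysis was possible because each group has 1 library. For the same reason no replicate was left out. The pDCs were few, with 102 and 11 cells, and B cells and granulocytes were shallow, with medians of 4204 and 3341 UMIs. Resolution 0.5 gave no pDC or mast cell class and resolution 2 no Cd209a-high class, so those values have no alternative there.

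The Ifng log2 ratio in T cells turned to 0.75 without the top cell of each library, to 1.07 without the top 5 and to 1.19 with classes from subclusters and mixed cells left out, and was -0.82 with the highest Scrublet scores removed and -0.70 with equal weight per cell. In NK cells it was 0.43 without the top 5 cells, -0.0931 with equal weight and -1.61 with classes from subclusters, where the cell with 409 UMIs counts as an NK cell. Over both it was 0.14 and 0.55 without the top cell or 5 cells, -0.55 without high Scrublet scores and -0.32 with equal weight. In the Ifi44-led subcluster it turned to 1.34 without the top 5 cells. With the 2% of cells with most UMIs left out of each class, chosen after seeing the data, the Ifng ratio turned to 0.78 in T cells and 0.43 over both and was -0.32 in NK cells, and the Ifnb1 ratio in microglia was -0.77. The Ifnb1 ratio was -0.48 with equal weight. The Ifngr2 ratio in NK cells turned to -1.94 without high Scrublet scores and to -0.15 with marker typing. The cause was not tested.

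The share of Ifng UMIs in NK and T cells was 94.8% (WT) and 98.3% (CD169-DTR) without high Scrublet scores. It was 84.0% and 93.5% when mixed cells were not counted as NK or T cells but their UMIs stayed in the library's total. That fall follows from the way of counting. With marker typing it was 89.5% in WT, and without the top cell or 5 cells 93.4% and 90.4% in CD169-DTR. The share of Ifnb1 UMIs in microglia was 96.3% in WT without high Scrublet scores, and 85.7% and 94.0% without the top 5 cells. Shares of cells with a UMI moved with depth. For Ifng they were 32.8% and 30.6% of NK cells at 2000 UMIs, 51.2% of WT NK cells unthinned, 32.9% of WT NK cells with marker typing, 16.9% of WT T cells at 2000 UMIs, and 27.0% and 21.7% of T cells unthinned. For Ifnb1 in microglia they were 1.95% and 2.27% at 2000 UMIs and 4.95% and 6.35% unthinned.

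The background of genes past the fold moved with the minimum of UMIs. With 1 UMI in each library and no other minimum it was 8.99% and 11.4% in microglia (WT and CD169-DTR), and towards CD169-DTR 16.2% in macrophages, 21.3% in NK cells and 14.4% in T cells. With at least 100 UMIs it was 2.25% and 2.13% in microglia, 9.84% and 5.40% in NK cells and 3.80% towards CD169-DTR in T cells. The division median in WT T cells turned to 0.36 at 2000 UMIs.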
